A study of Mus musculus with 12 samples.

Results

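The genes of the AP-1 family of transcription factors were followed across 4 groups of primary mouse cells labelled as vascular smooth muscle cells (VSMC) of the aorta. The 10 members were chosen by name: Fos, Fosb, Fosl1, Fosl2, Jun, Junb, Jund, Atf3, Batf3 and Maff. All 10 had a row in both deposited count tables, of 26728 gene names that the tables share. The groups were WT cells at day 1, NR4A3KO cells at day 1, WT cells at day 14 and NR4A3KO cells at day 14, with 3 libraries in each. NR4A3 is an orphan nuclear receptor whose own gene is induced early after stimulation, and the knockout cells are called KO below. Per the labels' protocols, all 4 groups grew in DMEM/F12 with serum, antibiotics and 10 mM beta-glycerophosphate (β-GP), a phosphate donor used to make cultured smooth muscle cells calcify. The treatment label, however, reads none for WT and β-GP for NR4A3KO, so the genotype and whatever that label stands for cannot be told apart. The labels give neither the way the knockout was made nor the age or sex of the mice, and nothing says that the replicates of a group came from separate animals or cultures. The p-values therefore cover only how much these libraries varied, and that variation may be technical.

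AP-1 is a dimer of proteins that carry a basic region, which binds DNA, and a leucine zipper, which holds the dimer together. FOS proteins pair only with partners such as the JUN proteins, whereas JUN proteins can also pair with each other, and the makeup of the dimer changes what it binds and how strongly it activates. Fos, Fosb, Jun, Junb and Atf3 are immediate early genes, induced within minutes of serum, growth factors or stress through mitogen-activated protein (MAP) kinases. In vascular smooth muscle AP-1 is known for its part in proliferation, migration and the expression of matrix proteases.

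Promoter windows of 9 of the 10 members were found in the RefSeq table of build GRCm38.p6. Only the 250 bases before each start were searched, on both strands, for exact matches. The motifs were the AP-1 site TGACTCA, the cyclic AMP response element TGACGTCA, the variants TGACATCA, TGACGTTT and TTACGTCA, the NR4A binding element AAAGGTCA and the CArG box bound by serum response factor. Shown here are the Fos window, which belongs to the one member that was lower in KO at both days, and windows of Jun and Maff, which were both higher in KO at day 1 and hold a match, in capitals. The coordinates are those of GRCm38.p6, with the Fos and Maff windows on the plus strand and the Jun window on the minus strand, each read 5′ to 3′ towards the start.
Fos, chr12:85473640-85473889: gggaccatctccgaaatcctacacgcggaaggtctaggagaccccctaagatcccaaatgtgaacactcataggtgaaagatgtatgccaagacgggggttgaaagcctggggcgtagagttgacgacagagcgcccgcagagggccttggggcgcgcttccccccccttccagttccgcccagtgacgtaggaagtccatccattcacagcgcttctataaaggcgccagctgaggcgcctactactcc
Jun, chr4:95052223-95052472: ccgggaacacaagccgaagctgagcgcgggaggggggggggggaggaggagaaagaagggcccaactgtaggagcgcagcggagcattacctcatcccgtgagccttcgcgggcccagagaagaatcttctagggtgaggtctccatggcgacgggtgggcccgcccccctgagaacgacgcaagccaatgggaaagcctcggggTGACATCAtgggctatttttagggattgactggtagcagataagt
Maff (the second of its 3 windows), chr15:79347270-79347519: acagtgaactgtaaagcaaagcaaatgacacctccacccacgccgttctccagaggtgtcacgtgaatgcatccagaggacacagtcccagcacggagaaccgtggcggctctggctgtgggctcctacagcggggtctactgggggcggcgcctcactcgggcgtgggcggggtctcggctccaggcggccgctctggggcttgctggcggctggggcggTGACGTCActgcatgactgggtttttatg
The Jun window holds TGACATCA at positions -45 to -38 from the start, a letter string found in 2.93% of the 32851 RefSeq windows of this length. The Maff window shown, which lies inside the gene before an alternative first exon, holds TGACGTCA at -29 to -22, found in 1.55% of all windows. The third Maff window holds TGACATCA at -45 to -38, and the first, which ends at the start of the gene, holds none of the strings. The Atf3 window holds TTACGTCA at -10 to -3, a string added to the search after the windows had been seen. It is found in 0.447% of all windows, a share that cannot measure how unexpected this match is. None of the strings was found in the Fos, Fosb, Fosl2, Junb, Jund or Batf3 windows, and AAAGGTCA, present in 1.34% of all windows, was in no member's window. Of the members without a match, Fosl2, Junb and Jund were also higher in KO at day 1. For Junb and Jund, however, the bases just after the window's start site were not found in GENCODE M21 transcripts of the gene. The Jund window ends at base 70697738 of chromosome 8, while GENCODE M21 starts the gene at 70698949, so this window may not be its promoter. A match describes the letters only.

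The libraries held 13847020 to 30102958 counts. Values are CPM, counts relative to the library total after scaling by the trimmed mean of M-values (TMM), and are comparable between libraries for 1 gene. Nr4a3, the targeted gene, ranged from 3.85 to 4.61 CPM in WT and from 1.89 to 2.34 CPM in KO at day 1, and at day 14 from 216.9 to 256.1 CPM and from 34.3 to 60.1 CPM. It was thus lower in KO at both days (log2 fold change -1.02 ± 0.21 (SE), adjusted p = 0.000856, and -2.27 ± 0.19, adjusted p = 2.6e-05), but its reads were not absent from KO cells. Which part of the gene was deleted is not given in the labels. Of 10 markers of smooth muscle, Acta2 (group means of 276 to 1628 CPM), Cald1 (1026 to 1751 CPM), Des (480 to 813 CPM), Tpm2 (105 to 180 CPM) and Smtn (52.3 to 126 CPM) were abundant. Acta2 and Cald1 were higher in KO at both days, Smtn was lower at both, Tpm2 was lower at day 1 and Des at day 14. Tagln, Myh11 and Myocd, which define contractile smooth muscle, had group means of at most 0.574 CPM. The contractile marker Cnn1 had group means of 0.257 CPM (WT day 1) to 1.94 CPM (KO day 14). Lmod1 had 0.628 CPM in WT day 1, but 9.62 CPM in KO day 1, 10.1 CPM in WT day 14 and 11.4 CPM in KO day 14. Myocd was at 0 counts in all 3 WT libraries of day 1. The summed endothelial markers reached 4.62 to 16.2 CPM, mostly from Cdh5 (group means of 3.70 to 14.1 CPM). The leukocyte markers reached 50.3 to 95.8 CPM, nearly all from Cd68 and Cd14, with Ptprc at a group mean of at most 0.477 CPM and Adgre1 at most 0.197 CPM. The summed adventitial fibroblast markers were lower in KO at day 1 (246 to 368 CPM against 579 to 588 CPM in WT) and stood at 510 to 699 CPM in WT and 692 to 773 CPM in KO at day 14, mostly from Ly6a. Of those tested, 7 of 8 were lower and 1 higher in KO at day 1, and at day 14 4 of 7 were higher, among them Pdgfra (1.18 ± 0.14, adjusted p = 0.000211), and 2 lower, Cd34 (-2.39 ± 0.14, adjusted p = 4.25e-06) and Dcn (-1.47 ± 0.20, adjusted p = 0.000377). The part of these cells in the results was not tested. The WT day 14 library of replicate 1 stood apart from its 2 replicates, with a chi-square per gene of 36.2 and 51.5 against them, where other replicate pairs had 2.91 to 19.5. The groups KO day 1 and WT day 14 differed in 1562 genes (5538 without that library), and every other pair of groups in 8100 to 8761 genes in the same fit.

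AP-1 genes differed between KO and WT at both days, mostly in opposite directions, as did most of all genes called at both days. At day 1, 6 of the 9 members tested were higher in KO (Fosl2, Jun, Junb, Jund, Atf3 and Maff) and 3 were lower (Fos, Fosb and Fosl1). Over all 15365 genes tested, 30.6% were called higher and 30.2% lower. At day 14, only Fosl1 was higher and 5 members were lower (Fos, Jun, Junb, Jund and Atf3), where 22.7% of 14902 genes were called higher and 23.7% lower. The 5 became 3 without WT day 14 replicate 2 or KO day 14 replicate 1 or 2, and 7 without WT day 14 replicate 1. Library totals separated the groups at day 1 (24927912 to 30102958 counts in WT, 17141784 to 20089520 in KO), and the mitochondrial share separated them at day 14 (3.26% to 3.42% in WT, 4.41% to 4.79% in KO), and the part of either in the result was not tested. Calls rest on edgeR's quasi-likelihood test with Benjamini-Hochberg adjustment over all genes tested, at an adjusted p below 0.05. The median log2 fold change of the members was 0.50 at day 1 and -0.44 at day 14, and that of all genes 0.01 and -0.0015. Both-day calls in opposite directions were found for 5 members (Jun, Junb, Jund and Atf3 higher then lower, Fosl1 lower then higher), and for 26.8% of the 14500 genes tested at both days. Fos was the only member called in one direction at both days, which held for 5.86% of genes. Of all genes called at both days, 3880 had opposite directions and 849 one direction, so the split was not particular to the members. In these bulk samples, fewer cells of a type and less RNA per cell cannot be told apart. Scaling by library size alone shifted the median of all genes by 0.12 at day 1, which raised the share of higher calls from 50.4% to 61.7%, but no member changed its direction in a comparison of KO with WT at either day.

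**Figure D1:**
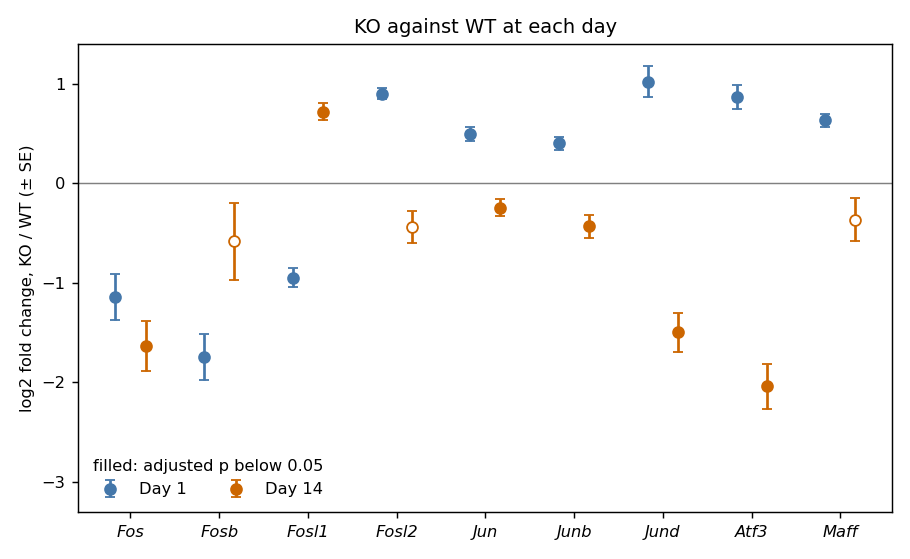
Log2 fold change of KO over WT (vertical axis, ± SE) of the 9 members tested, at day 1 (blue) and day 14 (orange), from fits of 6 libraries each; filled points have an adjusted p below 0.05. Fosl2, Jun, Junb, Jund, Atf3 and Maff lie above 0 at day 1 and below 0 at day 14, Fosl1 does the reverse, and Fos and Fosb lie below 0 at both days.

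Among the FOS proteins, Fos and Fosb carry strong activation domains and are transient products of stimulation. Fos was low in all groups. It had 4.70, 3.57 and 4.2 CPM in the 3 WT libraries of day 1 (112, 101 and 106 counts), and 2.0, 2.23 and 1.41 CPM in KO (36, 40 and 29 counts). At day 14 it had 4.05, 4.40 and 4.70 CPM in WT (81, 63 and 95 counts), and 1.16, 1.41 and 1.67 CPM in KO (19, 20 and 31 counts). All 6 KO libraries lay below all 6 WT libraries. The log2 fold change was -1.14 ± 0.24 (adjusted p = 0.000972) at day 1 and -1.64 ± 0.25 (adjusted p = 0.000772) at day 14, or 2.21-fold and 3.11-fold lower in KO. The change between days was within the error of the test (difference of the KO effects -0.48 ± 0.34, adjusted p = 0.235). In the order of the levels, KO day 14 and KO day 1 did not differ beyond their spread (adjusted p = 0.207), nor did WT day 1 and WT day 14 (adjusted p = 0.787).

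Fosb had 3.48, 4.07 and 3.93 CPM in WT and 1.06, 1.17 and 1.17 CPM in KO at day 1, without overlap (log2 fold change -1.75 ± 0.23, adjusted p = 2.94e-05). At day 14 the WT libraries spread from 1.12 to 3.02 CPM and enclosed the KO libraries, which had 1.28, 1.34 and 1.62 CPM (-0.58 ± 0.38, adjusted p = 0.243). WT day 1 was thus the high group, above WT day 14 (adjusted p = 0.0205), and no pair of the other 3 groups was called. KO day 14 lay above KO day 1 without overlap (1.28 to 1.62 against 1.06 to 1.17 CPM), but the difference was not called (adjusted p = 0.431). The difference of the KO effects was 1.18 ± 0.44 (adjusted p = 0.0307). That call was lost with scaling by library size (0.97, adjusted p = 0.0691) and without KO day 14 replicate 3, WT day 1 replicate 2 or 3, or KO day 1 replicate 1. The fall of Fosb from WT day 1 to WT day 14 was lost without WT day 14 replicate 2 or WT day 1 replicate 2 or 3.

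Fosl1 and Fosl2 encode FRA-1 and FRA-2, which lack the strong activation domains of FOS and are the longer-lived members of the subfamily. Fosl1 had 111.7, 107.1 and 105.6 CPM in WT at day 1 and 54.8, 65.3 and 47.0 CPM in KO. At day 14 it had 100, 98.6 and 106.4 CPM in WT and 178.6, 156.3 and 172.0 CPM in KO. WT thus stayed near one level, with no called difference between its days (adjusted p = 0.478), while KO lay below it at day 1 and above it at day 14, without overlap. The log2 fold change was -0.95 ± 0.095 (adjusted p = 1.99e-06) at day 1 and 0.72 ± 0.088 (adjusted p = 0.000224) at day 14. The difference of the KO effects was 1.69 ± 0.14 (adjusted p = 7.46e-08), and within KO the level rose 3.04-fold from day 1 to day 14 (adjusted p = 5.86e-09). Per GENCODE M21, 1163 exonic bases of Fosl1 overlap Ccdc85b on the opposite strand, and the sources used here do not say whether reads were counted by strand, so reads of the overlap cannot be told apart. Ccdc85b itself moved the other way at day 1 (0.75 ± 0.093, adjusted p = 1.44e-05) and was not called at day 14 (-0.43 ± 0.25, adjusted p = 0.182).

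Fosl2 had 168.1, 182.6 and 174.0 CPM in WT at day 1 and 327.0, 322.5 and 324.4 CPM in KO, a rise of 0.90 ± 0.054 on the log2 scale (1.87-fold, adjusted p = 1.42e-08). At day 14 WT had 342.8, 533.9 and 513.2 CPM and KO 311.9, 349.9 and 374.2 CPM. The lowest WT value is that of the library that stood apart, and it falls within the range of KO. The day 14 difference was not called (-0.44 ± 0.16, adjusted p = 0.0523). It was called without that library (-0.63, adjusted p = 1.4e-06) and under 5 other settings, given with the dependence on processing. WT day 1 was the lowest group, KO day 1 and KO day 14 did not differ beyond their spread (adjusted p = 0.571), and the difference of the KO effects was -1.32 ± 0.18 (adjusted p = 1.45e-05).

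**Figure D2:**
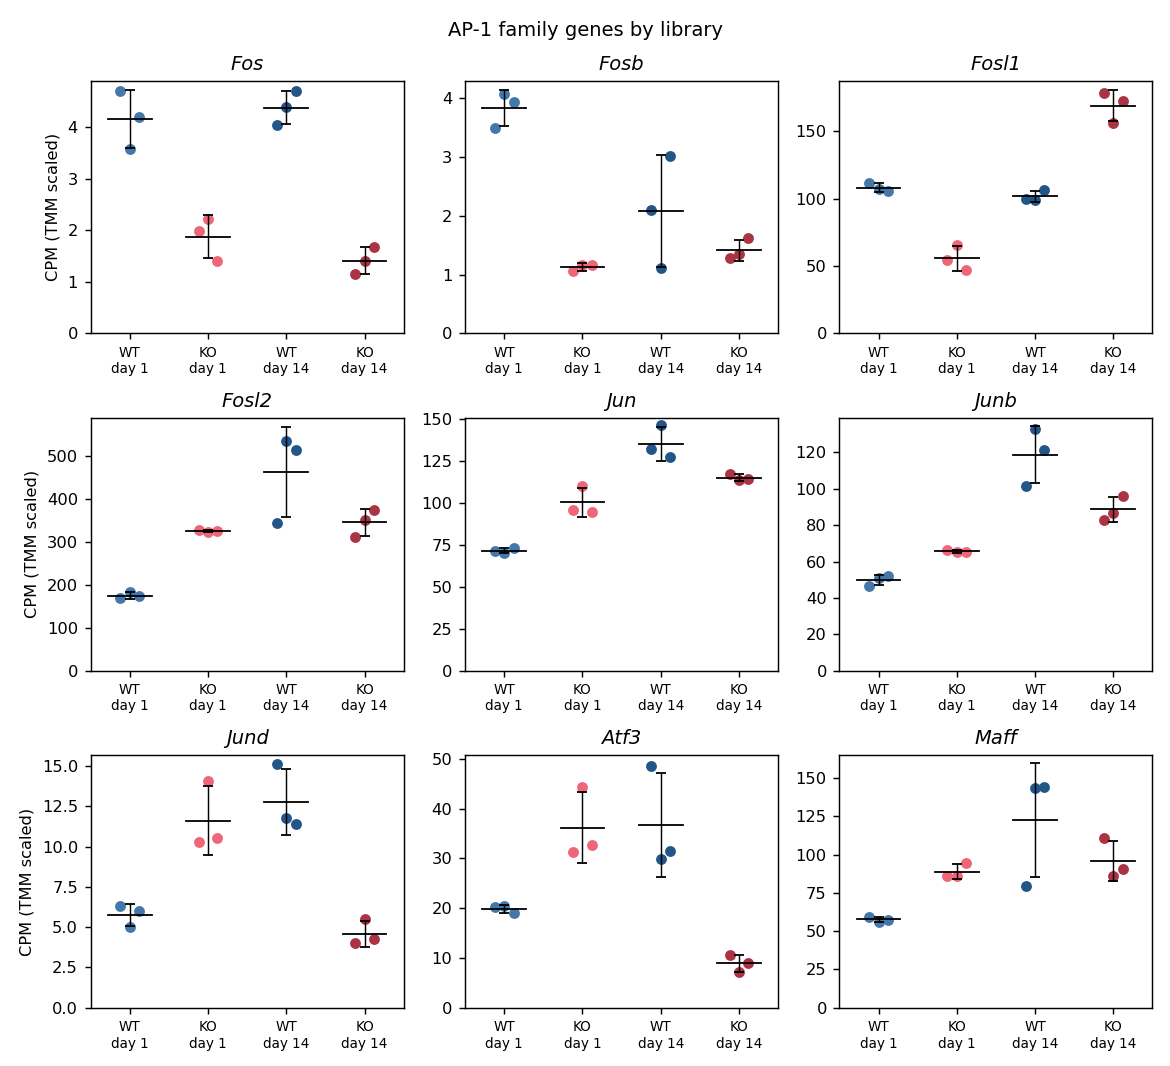
CPM (vertical axes, each from 0) of the 9 members tested in each of the 12 libraries; points are libraries, lines and bars the mean ± SD of 3. Fos is lower in KO at both days, Fosl1 is lower in KO at day 1 and higher at day 14, and Jund and Atf3 are highest in KO day 1 and WT day 14.

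Divided by exon length, Fosl1 and Fosl2 held nearly all of the FOS subfamily, and the 4 groups differed in which of them led. Which gene led hangs on the GENCODE M21 lengths, 2033 bases for Fosl1 and 9680 for Fosl2. The annotation behind the counts was not given. Before the division Fosl2 had the higher mean CPM in every group, from 174.9 against 108.1 in WT day 1 to 463.3 against 101.7 in WT day 14. Fosl1 took 72.2% ± 1.03 (SD, n = 3) of the summed CPM per kb in WT at day 1 but 44.1% ± 4.0 in KO, and 50.4% ± 5.67 in WT at day 14 but 69.5% ± 2.86 in KO. Fosl2 took 24.6% ± 1.23 and 54.4% ± 4.16 at day 1, and 47.4% ± 5.86 and 29.9% ± 2.76 at day 14, in WT and KO. In WT at day 14 Fosl1 led only in replicate 1, the library that stood apart (56.8% against 40.9% for Fosl2). In replicates 2 and 3 Fosl2 led (52.2% against 45.9%, and 49.2% against 48.5%). The part of the Ccdc85b overlap in the Fosl1 share was not tested. The shares of Fosl1 in WT and KO did not overlap at either day, whereas KO day 1 (40.3% to 48.3%) overlapped with WT day 14 (45.9% to 56.8%), and WT day 1 (71.5% to 73.4%) with KO day 14 (67.5% to 72.7%). Fos and Fosb together stayed small, with Fos at a mean of at most 2.40% and Fosb at most 0.833%. With 3 libraries against 3 no exact two-sided permutation test can go below p = 0.1, so the shares are given without a test.

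**Figure D3:**
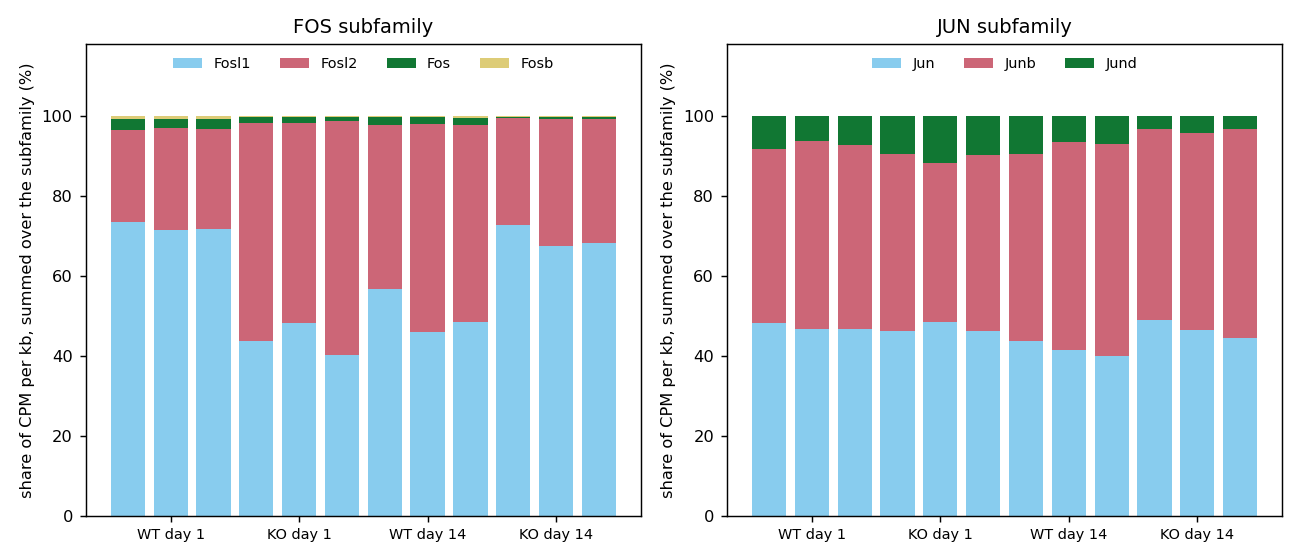
Share of each gene in the summed CPM per kb of its subfamily (vertical axes, percent), 1 bar for each of the 12 libraries in 4 groups of 3, for the FOS genes (left) and the JUN genes (right). Fosl1 takes over 67% in WT day 1 and KO day 14 and under 57% in the other groups, while Jun and Junb together take over 88% of the JUN sum in every library.

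Jun, Junb and Jund encode JUN proteins, which are partners of the FOS proteins. JUN is a strong activator, JUNB a weaker one that often restrains JUN, and JUND is commonly linked to resting cells. Jun had 71.0, 70.2 and 73.1 CPM in WT and 95.9, 110.0 and 94.6 CPM in KO at day 1 (0.50 ± 0.068, 1.41-fold, adjusted p = 3.64e-05). At day 14 it had 131.8, 146.5 and 127.1 CPM in WT and 117.2, 113.5 and 114.0 CPM in KO (-0.25 ± 0.087, adjusted p = 0.044). The groups did not overlap at either day, yet the day 14 difference lay close to the threshold. It was not called without a filter on low counts (adjusted p = 0.126), nor without WT day 14 replicate 2 or any 1 of the KO day 14 libraries (adjusted p = 0.0982 to 0.145). The antisense gene Junos, with 232 exonic bases over Jun, was called in the reverse directions (-1.42 ± 0.16, adjusted p = 6.47e-06 at day 1, and 1.73 ± 0.31, adjusted p = 0.00179 at day 14).

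Junb had 46.4, 51.2 and 51.9 CPM in WT and 66.2, 65.2 and 65.2 CPM in KO at day 1 (0.40 ± 0.066, adjusted p = 0.000163). At day 14 it had 101.8, 132.9 and 121.5 CPM in WT and 82.8, 87.0 and 96.3 CPM in KO (-0.43 ± 0.12, adjusted p = 0.0141). The groups did not overlap at either day. The day 14 call was lost without WT day 14 replicate 2 or KO day 14 replicate 1 or 2 (adjusted p = 0.0529 to 0.0691). The order of the levels was the same for Jun and Junb, with WT day 1 lowest, then KO day 1, KO day 14 and WT day 14, and each neighbouring pair was called, the pair KO day 1 and KO day 14 at an adjusted p of 0.0438 for Jun and 0.00129 for Junb. The Jun call of that pair was lost under most alternatives, given with the dependence on processing. Junb shares 173 exonic bases with Prdx2 on the opposite strand, which was lower in KO at day 1 (-0.41 ± 0.070, adjusted p = 0.000229) and not called at day 14 (0.05 ± 0.084, adjusted p = 0.682).

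Jund was the least abundant of the JUN genes per kb, and its KO effect was the largest in size of the 3 at each day. It had 6.29, 4.99 and 5.99 CPM in WT and 10.3, 14.1 and 10.5 CPM in KO at day 1 (1.02 ± 0.16, 2.03-fold, adjusted p = 0.000102). At day 14 it had 15.1, 11.8 and 11.4 CPM in WT and 4.02, 5.51 and 4.26 CPM in KO (-1.49 ± 0.20, 2.82-fold lower, adjusted p = 0.000339). The groups did not overlap at either day. KO day 14 and WT day 1 formed a low pair (adjusted p = 0.165 between them), and KO day 1 and WT day 14 a high pair (adjusted p = 0.641). The antisense gene Gm11175 overlaps 877 exonic bases of Jund in GENCODE M21. It is not listed in the deposited counts, so reads of the overlap cannot be told apart. The share of Jund in the JUN sum per kb at day 1 was 7.27% ± 0.917 in WT against 10.4% ± 1.28 in KO, and at day 14 7.62% ± 1.71 against 3.57% ± 0.640.

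Atf3 encodes a stress-induced factor that pairs with JUN proteins and often represses. It had 20.3, 20.5 and 19.0 CPM in WT and 31.3, 44.3 and 32.8 CPM in KO at day 1. At day 14 it had 48.7, 29.8 and 31.5 CPM in WT and 10.7, 7.20 and 9.06 CPM in KO. The groups did not overlap at either day, and KO day 14 was the lowest of all 4 groups. The log2 fold change was 0.87 ± 0.12 (1.82-fold, adjusted p = 4.17e-05) at day 1 and -2.04 ± 0.22 (4.11-fold lower, adjusted p = 0.000122) at day 14. The difference of the KO effects, -2.89 ± 0.27 (adjusted p = 2.69e-07), was the largest in size among the members. KO day 1 and WT day 14 did not differ beyond their spread (adjusted p = 0.947).

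Maff encodes a small MAF protein without an activation domain, which pairs with other zipper factors. It had 59.4, 56.2 and 57.4 CPM in WT and 85.9, 86.3 and 94.6 CPM in KO at day 1 (0.63 ± 0.064, 1.55-fold, adjusted p = 2.13e-06). At day 14 WT had 79.5, 143.5 and 144.3 CPM and KO 110.8, 86.2 and 90.7 CPM, so the groups overlapped through the WT library that stood apart. The difference was not called (-0.36 ± 0.22, adjusted p = 0.198), but it was called without that library (-0.62, adjusted p = 1.6e-05) and without a filter on low counts. KO day 1 and KO day 14 did not differ beyond their spread (adjusted p = 0.607). Batf3, a factor of dendritic and T cells, had 0 to 3 counts in every library (2, 2 and 0 in WT and 0, 3 and 0 in KO at day 1, and 3, 0 and 0 in WT and 0, 0 and 1 in KO at day 14). It was not tested, and a difference between the groups was not detectable at this depth.

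The KO effect itself differed between the days for 8 of the 9 members. It was lower at day 14 than at day 1 for 6 (Fosl2, Jun, Junb, Jund, Atf3 and Maff) and higher for 2 (Fosb and Fosl1), where 30.5% and 29.5% of 15973 genes were called lower and higher. The members' median was -0.81 and that of all genes -0.01. Scaling by library size alone shifted the median of all genes by -0.21 and the share of higher calls from 49.2% to 37.9%. All 8 kept their direction under each alternative. A shift common to the libraries of a day cancels in this difference.

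Between the days, AP-1 genes mostly rose in WT and were split in KO. In WT, 6 members rose from day 1 to day 14 and Fosb fell, where 25.8% and 26.1% of genes rose and fell. Junb rose by 1.25 ± 0.097 on the log2 scale (adjusted p = 5.68e-08) and Fosl2 by 1.41 ± 0.13 (adjusted p = 3.53e-07). In KO, Fosl1, Jun and Junb rose and Jund and Atf3 fell, where 26.9% and 27.9% of genes rose and fell. The rise of Jun was not called under 13 alternatives. Atf3 fell by 2.0 ± 0.20 (adjusted p = 6.81e-07) and Jund by 1.34 ± 0.19 (adjusted p = 2.32e-05). Each day is a separate deposited table, so the day and the table cannot be told apart in these values. With library size alone the median of all genes shifted by 0.13 in WT and the share of rising calls moved from 49.7% to 62.7%, while in KO the median shifted by -0.079 and that share moved from 49.1% to 42.2%.

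Across the diagonal of the design, 5 members were lower in KO day 1 than in WT day 14 (Fos, Fosl1, Fosl2, Jun and Junb) and 0 were higher, with 5.89% of genes called lower and 3.89% higher. The largest of these differences were in Fos (-1.23 ± 0.23, adjusted p = 0.00533) and Fosl1 (-0.87 ± 0.10, adjusted p = 0.000107). Without each library in turn the call of Fosl2 was lost for WT day 14 replicate 2 or 3 and KO day 1 replicate 1 or 3 (adjusted p = 0.0696 to 0.107). Maff, not called here (adjusted p = 0.096), was called without WT day 14 replicate 1. Between KO day 14 and WT day 1, 5 members were higher (Fosl1, Fosl2, Jun, Junb and Maff) and 3 lower (Fos, Fosb and Atf3), where 24.6% of genes were called higher and 26.1% lower. These comparisons share libraries with those within a day.

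Genes of other bZIP factors, some of which pair with AP-1 proteins, were called in both directions at each day. At day 1, of 17 tested, KO had 6 higher and 8 lower, with a median log2 fold change of 0.01, and at day 14, of 18 tested, 6 higher and 6 lower, with a median of -0.11. The shares of all genes called higher and lower were 30.6% and 30.2% at day 1, and 22.7% and 23.7% at day 14. Maf, a large MAF factor, had 17.8 ± 0.737 CPM (SD, n = 3) in WT and 43.4 ± 3.85 CPM in KO at day 1 (1.30 ± 0.089, adjusted p = 5.59e-08), but 52.7 ± 6.79 and 12.3 ± 0.498 CPM at day 14 (-2.11 ± 0.13, adjusted p = 5.4e-06). Cebpb, a C/EBP factor of the inflammatory response, rose at day 1 (1.51 ± 0.12, adjusted p = 2e-07) and was not called at day 14 (-0.32 ± 0.12, adjusted p = 0.0613), whereas its relative Cebpd fell by 1.25 ± 0.13 (adjusted p = 2.68e-06) and the repressor Nfil3 by 1.01 ± 0.11 (adjusted p = 4.58e-06). Nfil3 was lower at day 14 as well (-0.58 ± 0.14, adjusted p = 0.00735), and Cebpd was not called (-0.028 ± 0.24, adjusted p = 0.938). The repressor Bach2 was higher in KO at day 1 (1.12 ± 0.23, adjusted p = 0.000846) and fell by 3.17 ± 0.33 at day 14 (adjusted p = 9.64e-05), to 0.399 ± 0.124 CPM. Nfe2l2, which encodes the antioxidant factor NRF2, was lower at day 1 (-0.41 ± 0.058, adjusted p = 4.68e-05) and higher at day 14 (0.77 ± 0.078, adjusted p = 8.31e-05). Batf2 was also higher at day 14 (1.98 ± 0.68, adjusted p = 0.0396), but it had at most 29 counts in a library and lost its call without WT day 14 replicate 3 or any 1 of the KO day 14 libraries (adjusted p = 0.107 to 0.112).

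Of 30 genes of the kinases and regulators upstream of AP-1, 5 were higher and 16 lower in KO at day 1 (median -0.20), where 30.6% and 30.2% of all genes were, and 11 were higher and 5 lower at day 14 (median 0.06), where 22.7% and 23.7% were. The 5 higher at day 1 went to 2 without WT day 1 replicate 1 and to 3 without WT day 1 replicate 2 or KO day 1 replicate 1, and the 5 lower at day 14 to 8 without WT day 14 replicate 1. Map2k6, a kinase that activates p38, had 16.2 ± 0.592 CPM in WT and 5.94 ± 1.30 CPM in KO at day 1 (-1.43 ± 0.15, adjusted p = 2.31e-06), but 7.27 ± 0.522 and 23.2 ± 2.99 CPM at day 14 (1.66 ± 0.15, adjusted p = 4.14e-05). Mapk11, which encodes a p38 kinase, was lower in KO at day 1 (-0.93 ± 0.10, adjusted p = 5.24e-06) and higher at day 14 (1.75 ± 0.14, adjusted p = 2.4e-05). Map3k5, the stress kinase ASK1, was lower at day 1 (-1.25 ± 0.20, adjusted p = 0.00012) and higher at day 14, close to the threshold (0.67 ± 0.24, adjusted p = 0.0495). Mapk10, a JNK gene, and Rps6ka1, a kinase below ERK, were lower at day 14 (-2.55 ± 0.41, adjusted p = 0.00103, and -2.90 ± 0.41, adjusted p = 0.000506). The KO libraries of day 14 held only 3 to 6 counts of Mapk10 and 3 to 8 of Rps6ka1. In WT they were 24 to 36 and 35 to 51. Both genes were higher at day 1 (1.14 ± 0.42, adjusted p = 0.03, and 1.06 ± 0.38, adjusted p = 0.0278). These rises rest on at most 35 counts a library. The Mapk10 call was lost without any 1 WT day 1 library or KO day 1 replicate 1, and the Rps6ka1 call without WT day 1 replicate 1 or 2 or KO day 1 replicate 1.

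Genes described as AP-1 targets were also split. Of 27, 7 were higher and 12 lower in KO at day 1 (median -0.22), and 14 were higher and 8 lower at day 14 (median 0.34), with medians over all genes of 0.01 and -0.0015. The shares over all genes were 30.6% and 30.2% at day 1 and 22.7% and 23.7% at day 14. The 2 days had opposite calls for 13 of the 27, and for 26.8% of all genes tested at both days. Another 2 targets were higher at both days and 1 was lower at both. Of all genes called at both days, 3880 had opposite directions and 849 one direction. Il6, a cytokine, had 19.0 ± 0.473 CPM in WT and 3.84 ± 2.43 CPM in KO at day 1 (-2.27 ± 0.27, adjusted p = 1.03e-05), and 20.7 ± 3.26 and 209.6 ± 79.6 CPM at day 14 (3.33 ± 0.27, adjusted p = 2.23e-05). Mmp10, the protease stromelysin-2, had 112.5 ± 8.16 and 501.7 ± 16.3 CPM at day 1 (2.17 ± 0.064, adjusted p = 2.58e-11), and 466.5 ± 106.4 and 40.6 ± 5.41 CPM at day 14 (-3.53 ± 0.18, adjusted p = 2.17e-06). The proteases of one family thus differed in direction. Mmp12, an elastase, was higher in KO at day 1 (4.55 ± 0.23, adjusted p = 3.11e-09) and lower at day 14 (-1.33 ± 0.25, adjusted p = 0.00252). At day 1 it had only 13 to 24 counts a library in WT, against 256 to 463 in KO. Mmp3 was lower at day 1 (-1.32 ± 0.081, adjusted p = 1.81e-08) and not called at day 14 (0.21 ± 0.26, adjusted p = 0.528). The gelatinase Mmp9 was not called at day 1 (-0.36 ± 0.41, adjusted p = 0.469) and was higher at day 14 (6.79 ± 0.41, adjusted p = 5.12e-06), at 0 to 7 counts in WT and 270 to 462 in KO. Edn1, which encodes the vasoconstrictor endothelin-1, was not called at day 1 (-0.26 ± 0.26, adjusted p = 0.41) and was lower at day 14 (-2.85 ± 0.50, adjusted p = 0.00172). At day 14 it had only 2 to 13 counts a library in KO, against 38 to 83 in WT.

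**Figure D4:**
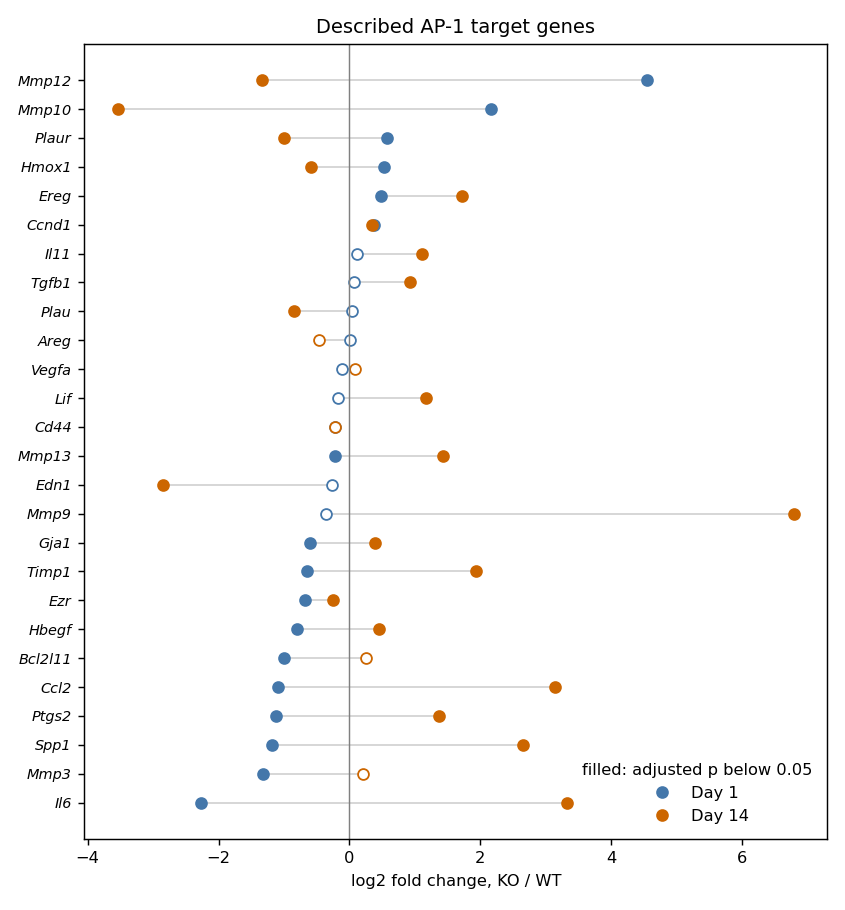
Log2 fold change of KO over WT (horizontal axis) of genes described as AP-1 targets at day 1 (blue) and day 14 (orange), in the order of the day 1 value; filled points have an adjusted p below 0.05. Hmox1, Mmp10, Mmp12 and Plaur were among the genes higher then lower, and 8 genes, Il6 among them, were lower then higher.

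Other immediate early genes fell and rose in KO at each day. At day 1, 6 of 19 were higher and 12 lower (median -0.62), and at day 14, 5 were higher and 10 lower (median -0.49), with medians over all genes of 0.01 and -0.0015. Of all genes, 30.6% were higher and 30.2% lower at day 1, and 22.7% and 23.7% at day 14. Egr3, a zinc finger factor, had 11.4 ± 1.22 CPM in WT and 1.43 ± 0.370 CPM in KO at day 1 (-2.97 ± 0.20, adjusted p = 3.92e-08), and 1.2 ± 0.140 and 22.4 ± 2.46 CPM at day 14 (4.21 ± 0.19, adjusted p = 9.86e-07). Its relative Egr1 was lower in KO at day 1 (-1.80 ± 0.11, adjusted p = 1.27e-08) and higher at day 14 (2.87 ± 0.18, adjusted p = 6.34e-06). Nr4a2, a receptor of the same family as NR4A3, was lower at day 1 (-2.64 ± 0.080, adjusted p = 2.9e-11) and higher at day 14 (1.53 ± 0.18, adjusted p = 0.000212). Dusp1, a phosphatase that switches off MAP kinases, was higher at day 1 (1.64 ± 0.098, adjusted p = 1.43e-08) and lower at day 14 (-2.17 ± 0.13, adjusted p = 4.08e-06). Ctgf, a matricellular growth factor, was likewise higher at day 1 (3.02 ± 0.089, adjusted p = 2.48e-11) and lower at day 14 (-0.71 ± 0.15, adjusted p = 0.00518), as was the antiproliferative gene Btg2 (1.10 ± 0.069, adjusted p = 2.3e-08, and -2.26 ± 0.14, adjusted p = 6.56e-06).

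The genes whose profile over the 4 groups was most like that of each member were sought among 9599 genes, by the root mean square difference of the centred group means of log2 CPM. Fosl1 was most like Pde4b (0.0607) and Casp12 (0.0977), and Fos most like Adamtsl4 (0.119) and Jak3 (0.166), the poorest of the nearest matches. Jund lay nearest to Klhdc8a (0.0402) and Mdm2 (0.0490), and Atf3 nearest to Abcg2 (0.0465) and Psrc1 (0.0524). Jun lay nearest to Nbl1 (0.0449) and Ogfr (0.0449), and Ogfr was also the gene nearest to Maff (0.0170), before Ccdc102a (0.0296). Junb lay nearest to Fndc10 (0.0386) and Jrk (0.0859), Fosl2 to Relt (0.0498) and Fam19a5 (0.0562), and Fosb to Cd14 (0.0470) and Erfe (0.0701). These are likenesses over 4 group means, with no test.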

How the data were processed

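Per the labels' protocols, RNA of 12 libraries (4 groups of 3) was sequenced after NEBNext Ultra RNA preparation. The authors deposited raw, whole-number read counts by gene name, as 1 table per day, on genome build mm9 per the submitters' processing notes. Which aligner, counter and annotation they used, and whether reads were counted by strand, was not given in the sources used here. Columns named CTR were taken as WT, replicate numbers came from the column names, and each table gave the day. Repeated lines (43 and 53) and names listed with different counts (2 in each table) were removed, which left 28447 and 30809 names.

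Tests used edgeR 4.0.16 (R 4.3.3) with TMM scaling, filterByExpr and the quasi-likelihood F test, with Benjamini-Hochberg adjustment over all genes tested and a threshold of 0.05. For KO against WT, the 6 libraries of each day were fitted by themselves, and the other comparisons came from 1 fit of 12 libraries over the shared names. Standard errors were taken as the log2 fold change divided by the root of F. CPM per kb uses GENCODE M21 exon lengths. Alternatives were other scalings, DESeq2 1.42.0, limma-voom (limma 3.58.1), other filters, the replicate block, all 12 libraries in 1 fit and leaving out each library. The fits in their main setting were first tested on simulated counts in which only a small part of the genes changed. That test does not cover changes as broad as those called here, and the other steps were not tested on simulated counts. The members and gene lists were chosen with earlier results of these data known. The rule for named genes takes all members, up to 2 called genes with the largest rise and 2 with the largest fall per list within a day, and the 2 genes most like each member (mean log2 CPM at least 3, offset 0.5 CPM). The genes named only in the caption of the AP-1 target plot, and those sharing exonic bases with members, fall outside that rule and were picked with their values known. 1 gene of the AP-1 target list is not reported here, though it stays in the tests and counts. Promoters come from RefSeq (GRCm38.p6), and the strings TGACGTTT and TTACGTCA were added after the windows had been seen.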

Additional observations from a re-analysis of the deposited data

Results flagged for a closer look

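The KO effect differed between day 1 and day 14 for 8 of the 9 members tested, by the interaction term of the 12-library fit (edgeR's quasi-likelihood test). On the log2 scale the effect at day 14 minus that at day 1 was lower by more than 2 for Atf3 and Jund, at -2.887 for Atf3 and -2.498 for Jund. For the members with smaller falls it was -1.316 for Fosl2, -0.9763 for Maff, -0.8142 for Junb and -0.7208 for Jun. It was higher for Fosl1, at 1.69, and for Fosb, at 1.176. Leaving out WT day 14 replicate 1, the library that stood apart, gave -2.65 for Atf3, -2.39 for Jund, -1.52 for Fosl2, -1.24 for Maff and 1.65 for Fosl1, and the 8 calls held.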

How the results depend on the processing

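Over all comparisons, members and alternatives, 1046 values kept their direction and their side of the threshold, 40 lost a call, 11 gained one and 10 turned direction. Between days, values with the replicate block refer to replicate 1 of each group, because of how its terms were coded. The 10 that turned direction were all uncalled. For day 14 against day 1 in WT they were Fos with the replicate block (-0.24) and without WT day 1 replicate 2 (-0.027, in a range of -0.027 to 0.17 over the libraries left out), and Fosl1 with library size alone (0.043). In KO they were Fosl2 with the replicate block (-0.16), and Maff with the replicate block (-0.026) and without KO day 14 replicate 1 (-0.017, range to 0.17). For KO day 1 against WT day 14 they were Jund without WT day 14 replicate 1 (0.0052, range from -0.29) and Atf3, with a range from -0.19, without that library (0.24), without KO day 1 replicate 1 (0.064) and without KO day 1 replicate 3 (0.037).

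Leaving out 1 library at a time, members lower in KO at day 14 numbered 3 to 7, members whose KO effect was higher at day 14 numbered 1 to 2 (1 with library size alone), members falling in WT between days 0 to 1, and genes called between KO day 1 and WT day 14 numbered 576 to 5538, against 1562. As coded here, the replicate block makes comparisons between days refer to replicate 1 of each group, WT day 14 replicate 1 included. Its values between days are therefore not the effect of blocking alone. In them the WT fall went to 0 members and the KO rise between days to 1 member (Jun and Junb lost). KO day 1 against WT day 14 went to 2 members lower (Fos, Fosl2 and Jun lost) and 101 genes. Of the genes named from the lists, Mapk10 and Rps6ka1 at day 1 lost their calls with the block (adjusted p = 0.0564 and 0.0515). The Jun fall at day 14 was not called with the block (adjusted p = 0.0652). Same-numbered libraries of WT and KO correlated at -0.0252 to 0.0603 within a day, so the numbers were not taken as pairs. The Jun rise in KO between days was not called under 13 alternatives. The day 14 fall of Fosl2 was called with library size alone (adjusted p = 0.0304), DESeq2 (0.0298), no filter (0.000454), the block (0.0199) and all 12 libraries (0.011). Causes were not tested. Counts limit Fos, Fosb and Batf3.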
